A study of Homo sapiens with 6 samples.

Results

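The nuclear-encoded subunit genes of respiratory complexes II to V were compared between HT29 cells given YM155 and cells given its solvent, DMSO, for 24 h. Members were taken by symbol: SDHA to SDHD, CYC1, and every symbol beginning with UQCR, COX4, COX5, COX6, COX7, COX8 or ATP5. The rule took 52 symbols, of which the pseudogenes ATP5EP2 and UQCRBP1 were left out, so 50 of the 26255 listed genes were members. Of these, 46 encode subunits (4 of complex II, 10 of complex III, 16 of complex IV and 16 of complex V) and 4 match a prefix without being a subunit (COX7A2L, ATP5S, ATP5SL and the read-through ATP5J2-PTCD1). The members were chosen by name and not by their values.

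HT29 is an established human colorectal adenocarcinoma line, and YM155 is a small molecule known for lowering the expression of survivin (BIRC5). Each group had 3 messenger RNA libraries, both groups were the same unmodified line, and the concentration of YM155 is not given in the sources used here. The titles of the treated libraries spell the compound YM115, while their treatment label reads YM155, which is used here. Separate cultures are not named in the labels, so p-values here measure a spread between libraries that may be technical.

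As background, the respiratory chain in the inner mitochondrial membrane passes electrons from NADH and succinate to oxygen and pumps protons, and ATP synthase (complex V) lets the protons flow back to make ATP. Complex II (succinate dehydrogenase) also works in the citric acid cycle and is encoded wholly in the nucleus. Complexes III, IV and V also hold core subunits encoded by mitochondrial DNA. No listed gene has a symbol starting with MT-, and these subunits were not analysed here. The nuclear subunit genes are often described as a set driven by shared factors, among them NRF-1 and the ETS-family factor GABP.

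The unit is FPKM, fragments per kilobase of transcript, scaled for library depth, so levels of different genes can be compared per length. FPKM summed to 538478 to 563296 in the DMSO libraries and to 678699 to 696067 in the YM155 libraries, a ratio of the means of 1.25. Read totals are not in these values. The spacing of low values put the reads behind a given FPKM in the YM155 libraries at 0.561 to 0.657 of DMSO library 1. The estimate rests on 12.6% to 14.2% of the low values compared. It equals read depth only if FPKM was scaled by library totals, which is not stated. On this estimate, scarce transcripts had fewer reads behind them with YM155. Of 9 colon epithelium markers, 8 reached 1 FPKM, among them EPCAM, KRT8 and KRT18, while CDX1 stayed at or under 0.245 FPKM. Their summed level was 4109 to 4303 FPKM with DMSO and 7271 to 7852 with YM155, and its part in the results below was not tested. The markers did not move alike: KRT8 went from 1962 ± 56.7 to 3239 ± 172 FPKM, KRT18 from 1706 ± 68.2 to 3006 ± 188 and KRT20 from 120.1 ± 1.36 to 805 ± 51.9, while VIL1 went from 38.6 ± 0.705 to 22.3 ± 2.63 and CDX2 from 3.20 ± 0.456 to 0.839 ± 0.144 (SD, n = 3). The listed markers of fibroblasts, endothelium, striated muscle and germ cells were under 1 FPKM in every library, as were PTPRC, the common leukocyte antigen, and the T cell gene CD3E. Of the other genes of the leukocyte list, CD14 was at 0.927 ± 0.189 FPKM with DMSO and 0.495 ± 0.178 with YM155, and at most 1.05. LYZ stood at 1956 ± 135 FPKM with DMSO and 2004 ± 72.6 with YM155 (SD, n = 3).

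Of the 50 members, 42 reached 1 FPKM in at least 3 of the 6 libraries and were tested. Among all 12035 genes tested on the same filter with limma, 84.7% passed the threshold of an adjusted p under 0.05, 43.6% as higher and 41.0% as lower with YM155. Of the tested members, 7 were higher, 25 were lower and 10 did not pass, so 59.5% were lower and 16.7% higher. Their median log2 fold change was -0.21, beside 0.024 over all tested genes. The libraries of the groups did not overlap for 29 of the 42 members (69.0%), against 85.9% of all tested genes. In these bulk samples a change in level may come from fewer cells that express a gene or from less RNA per cell, which cannot be told apart.

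With the deposited FPKM the complexes differed in their counts. Complex V had 14 lower and 0 higher of 15 tested (median log2 fold change -0.42), and complex III had 6 lower and 1 higher of 9 (median -0.46). Complex IV had 3 lower and 2 higher of 10 (median -0.090), and the 4 genes of complex II were split evenly, with 2 in each direction (median 0.032). Over the 38 tested subunits the counts were 25 lower, 5 higher and 8 that did not pass, with a median of -0.32. The remaining rises came from 2 of the prefix matches that are no subunit.

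The falls and the rises differed in how they depended on scaling, the factor that makes libraries comparable. When the libraries were rescaled to a common FPKM sum, all tested genes split into 31.8% higher and 53.4% lower, and the median of all genes shifted by -0.28 on the log2 scale. With upper-quartile scaling the split was 34.8% higher and 50.8% lower and the shift -0.22, and with quantile normalization the shift was -0.11. Beside these splits, 0 members were higher and 35 lower with a common sum, and 0 and 34 with upper-quartile scaling. With quantile normalization 38.6% of all genes were higher and 45.6% lower, beside 1 and 39 members, and with removal of the abundance trend by cyclic loess 40.8% and 42.2%, beside 2 and 34 members. With median-of-ratios scaling the shares were 45.1% and 39.7%, beside 7 and 22 members.

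The contrast between complexes in these counts was smaller under the 4 scalings other than median-of-ratios. Complex IV had 8 lower and 0 higher of 10 with upper-quartile, common-sum and loess scaling, and 10 of 10 lower with quantile normalization. Complex V then had 15 of 15 lower under each of the 4, and complex III 8 of 9 lower, or 9 of 9 with quantile normalization. Complex II had 2 of 4 lower and 0 higher, or 3 of 4 lower with quantile normalization. Of the 25 members that fell, 22 stayed lower under all 5 scalings tried, namely those above. The other 3 (ATP5B, ATP5G2 and COX5B) did not pass with median-of-ratios scaling. Each of the 7 rises passed as higher with median-of-ratios scaling and with the deposited values alone, and none did so under the other 4 scalings. With quantile normalization 6 of the 7 passed as lower (all but SDHD), and ATP5SL also passed as lower with a common sum and with loess. A rise named below is thus a rise in deposited FPKM, and the order of members within a library is given by ratios, which do not depend on a library's scale factor.

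**Figure D1:**
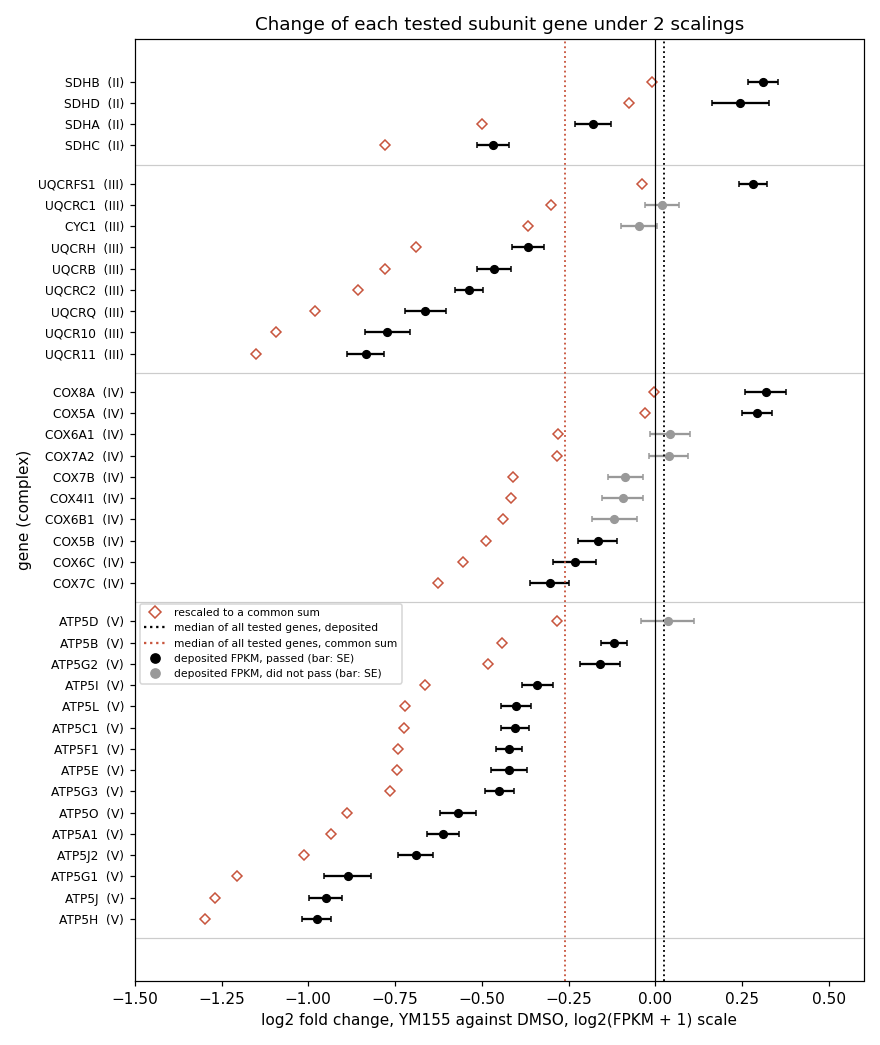
Log2 fold change (YM155 against DMSO, log2(FPKM + 1) scale, horizontal axis) of each of the 38 tested subunit genes, grouped by complex and ordered within it. Filled points with bars show the estimate and its standard error from the deposited FPKM (black passed, grey did not), open diamonds the same after rescaling to a common sum, and dotted lines the medians of all tested genes; the 5 subunit rises lie at or left of 0 after rescaling, and the falls of complex V reach -0.98 with the deposited values.

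Among the 38 subunits, levels with DMSO ran from 38.5 FPKM for SDHC to 1097 ± 59.1 for ATP5E (SD, n = 3). ATP5E, which encodes the epsilon subunit of the F1 part, and COX7C, a small subunit of complex IV at 1009 ± 60.3, headed the order in both groups, and their libraries overlapped in each group. COX6A1 followed at 585 ± 39.3 with DMSO and 602 ± 26.5 with YM155, apart from both in every library. Median levels with DMSO were 81.8 FPKM in complex II, 82.3 in complex III, 407 in complex IV and 179 in complex V. The range within a complex was widest in complex V, where ATP5E was 23.8-fold above ATP5G3, and narrowest in complex II, where SDHA was 2.2-fold above SDHC. Summed over the subunits, the level was 9467 ± 396 FPKM with DMSO and 8027 ± 226 with YM155, or 1.73% ± 0.0345 and 1.17% ± 0.0159 of each library's FPKM sum (SD, n = 3).

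**Figure D2:**
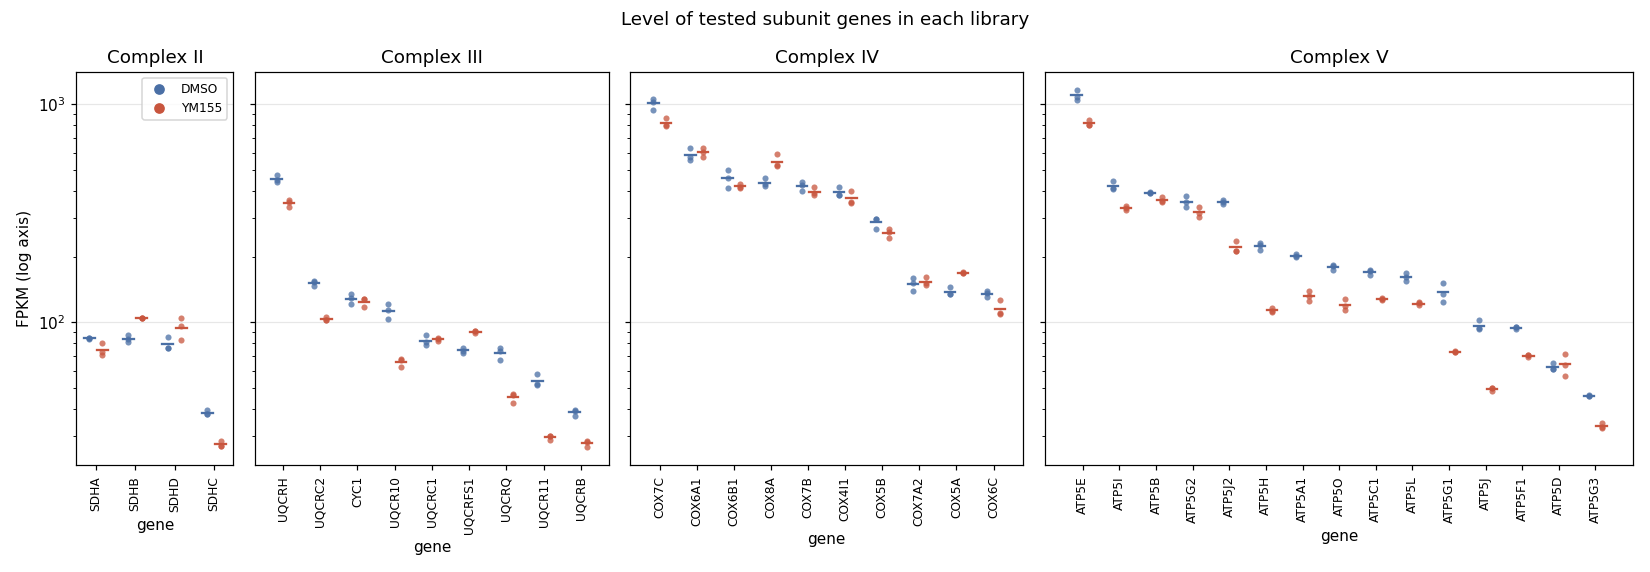
FPKM of each tested subunit gene in each library (log axis), 1 panel per complex, genes ordered by the DMSO mean; points are libraries (blue DMSO, red YM155) and short lines are group means of 3. ATP5E and COX7C head the order in both groups, and in complex V the red points lie below the blue for 13 of 15 genes.

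Letters known as binding cores of factors that act on respiratory genes were searched in promoter windows of 300 bases, from 250 before to 50 after the start of each gene (RefSeq, GRCh38.p14; both strands). A window was matched for 30 of the 38 tested subunits. The NRF-1 core (GCGCA, any base, GCGC) was found in 9 of the 30 (30.0%), in 6.29% of all 27305 windows and in 12.1% of the 9719 windows of tested genes. The ETS core CCGGAAG, which GABP also binds, was found in 14 of 30 (46.7%), against 10.7% and 20.4%. For the YY1 core AAGATGGC the counts were 5 of 30 (16.7%), against 3.03% and 5.72%, and for the cyclic AMP response element TGACGTCA 3 of 30 (10%), against 1.98% and 3.26%. The antioxidant response element core TGACNNNGC stood in 3 of 30 (10%), against 13.6% and 15.1%. By direction, the NRF-1 core was found in 6 of 19 windows of subunits that fell and 2 of 5 of those that rose in deposited FPKM, and the ETS core in 8 of 19 and 3 of 5. Neither motif was thus limited to 1 direction, and a match is a description of the letters and not of a bound site. Stretches of up to 200 bases before the start are printed below for chosen members, with positions counted back from the start. SDHA and ATP5G1 among them are not at the ends of their complex's range. Each printed stretch holds a core, and so do windows of subunits that are not printed, such as ATP5C1 and COX6B1. Some windows hold none, among them that of COX7C, the largest fall of complex IV.

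Complex II, which oxidises succinate and hands its electrons to ubiquinone, divided in deposited FPKM into rises of SDHB and SDHD and falls of SDHA and SDHC. SDHA and SDHB are the catalytic pair, the flavoprotein and the iron-sulfur subunit. SDHC and SDHD are the membrane anchors that bind ubiquinone, so each pair was split in deposited FPKM. SDHB stood at 83.5, 87.7 and 81.2 FPKM in the DMSO libraries and at 105.0, 104.3 and 104.3 in the YM155 libraries. All YM155 libraries were above all DMSO libraries, a 1.24-fold rise in deposited FPKM (log2 fold change 0.31 ± 0.042 SE, limma adjusted p = 9.5e-05). After rescaling to a common sum, the log2 fold change was -0.0096 for SDHB and -0.075 for SDHD. SDHC was listed at 37.9, 39.6 and 38.1 FPKM with DMSO and 28.6, 27.0 and 27.2 with YM155. The groups did not overlap, and the fall was 1.40-fold (log2 fold change -0.47 ± 0.046 SE, limma adjusted p = 1.1e-05).

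SDHA was at 84.1, 85.1 and 84.8 FPKM with DMSO and 80.2, 73.0 and 70.9 with YM155. Every YM155 library was lower, with a log2 fold change of -0.18 (limma adjusted p = 0.0092). SDHD was at 85.2, 76.3 and 76.5 FPKM with DMSO and 82.8, 104.1 and 96.6 with YM155, so the groups overlapped: YM155 library 1 was under DMSO library 1. Its log2 fold change of 0.24 passed (limma adjusted p = 0.021), but did not pass without DMSO library 2 (0.064), DMSO library 3 (0.066), YM155 library 2 (0.076) or YM155 library 3 (0.059). Within each library, the ratio of SDHB to SDHC was 2.18 ± 0.0439 with DMSO and 3.79 ± 0.109 with YM155 (SD, n = 3), with no overlap. The pair was picked as the highest and lowest log2 fold change of the complex, so the ratio is a description.

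The windows of SDHA and SDHB show how the promoters of this catalytic pair differ in the letters searched. That of SDHA (chr5:218154-218319, plus strand, printed from 166 bases before the start, just short of the start of the head-to-head gene CCDC127) holds 4 NRF-1 cores, at -166, -117, -68 and -19. That of SDHB (chr1:17054033-17054232, minus strand) holds an ETS core at -128, and beyond the printed stretch a cyclic AMP response element across the start (from -4) and a YY1 core at 11. Capitals mark the cores, 5′ to 3′ along each gene.
SDHA: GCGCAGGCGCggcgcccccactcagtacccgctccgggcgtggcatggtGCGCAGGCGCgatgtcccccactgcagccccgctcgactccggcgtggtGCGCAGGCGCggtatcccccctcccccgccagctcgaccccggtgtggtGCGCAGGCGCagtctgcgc
SDHB: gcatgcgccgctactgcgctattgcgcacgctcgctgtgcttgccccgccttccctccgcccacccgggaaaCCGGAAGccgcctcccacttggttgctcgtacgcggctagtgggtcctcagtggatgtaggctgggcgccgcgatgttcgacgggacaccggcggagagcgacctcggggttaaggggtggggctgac

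Complex III, which takes electrons from ubiquinol to cytochrome c, was mostly lower, and its largest falls were in small supernumerary subunits. UQCR11 stood at 52.1, 57.8 and 51.4 FPKM with DMSO and 30.1, 28.9 and 30.0 with YM155. All YM155 libraries were far under all DMSO libraries, a 1.81-fold fall (log2 fold change -0.84 ± 0.055 SE, limma adjusted p = 6.7e-07). The small subunits UQCR10 and UQCRQ went from 113 ± 9.26 to 65.7 ± 3.23 FPKM and from 72.2 ± 4.84 to 45.2 ± 2.19 (SD, n = 3). UQCRB, another small subunit, fell 1.39-fold to 27.8 FPKM, and UQCRC2, a core protein, fell 1.46-fold from 151 ± 4.15 to 104 ± 2.22 FPKM.

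UQCRH, the hinge protein and the most abundant member of the complex, was at 441, 471 and 451 FPKM with DMSO and 365, 337 and 355 with YM155. The groups did not overlap, with a log2 fold change of -0.37 (limma adjusted p = 5.6e-05). UQCRFS1, the Rieske iron-sulfur protein, was the 1 member that rose in deposited FPKM, from 73.8, 72.6 and 76.5 to 89.2, 91.2 and 91.0. Its groups did not overlap (log2 fold change 0.28 ± 0.040 SE, limma adjusted p = 0.00013), and after rescaling to a common sum the value was -0.038. CYC1, the cytochrome c1 subunit, was at 130, 134 and 121 FPKM with DMSO and 127, 127 and 118 with YM155, and UQCRC1, the other core protein, at 80.9, 87.5 and 78.4 and at 84.1, 84.3 and 81.7. In both the groups overlapped, and neither passed (limma adjusted p = 0.42 and 0.71), but both were lower under the 4 scalings other than median-of-ratios (-0.30 to -0.48 for CYC1 and -0.23 to -0.42 for UQCRC1). The ratio of UQCRFS1 to UQCR11 within a library was 1.39 ± 0.119 with DMSO and 3.05 ± 0.10 with YM155 (SD, n = 3), again a pair picked for its extremes.

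The 2 ends of this complex both carry NRF-1 cores close to the start, which is why they are shown together. UQCR11 (chr19:1605463-1605662, minus strand) has them at -29 and -10, with ETS cores at -117 and -97, and UQCRFS1 (chr19:29213152-29213351, minus strand) has 1 at -31. The first fell and the second rose in deposited FPKM, and capitals mark the cores.
UQCR11: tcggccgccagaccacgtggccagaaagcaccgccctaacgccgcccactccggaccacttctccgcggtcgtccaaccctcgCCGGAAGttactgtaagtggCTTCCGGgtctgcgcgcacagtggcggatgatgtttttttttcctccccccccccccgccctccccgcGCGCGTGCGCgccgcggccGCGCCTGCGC
UQCRFS1: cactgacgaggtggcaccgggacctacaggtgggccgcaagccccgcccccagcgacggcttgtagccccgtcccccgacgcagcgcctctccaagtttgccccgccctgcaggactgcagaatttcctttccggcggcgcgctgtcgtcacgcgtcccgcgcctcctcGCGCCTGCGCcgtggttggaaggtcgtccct

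Complex IV, cytochrome c oxidase, reduces oxygen and had the median nearest 0 among complexes III to V. COX7C, its most abundant subunit and its largest fall, was at 1026, 1060 and 943 FPKM with DMSO and 860, 801 and 790 with YM155. The groups were apart, and the log2 fold change was -0.30 ± 0.057 SE (limma adjusted p = 0.00078). COX6C fell 1.17-fold, from 135 ± 4.63 to 115 ± 9.94 FPKM, and COX5B 1.12-fold, from 288 ± 16.9 to 256 ± 12.7 (SD, n = 3). The COX5B call did not hold without DMSO library 1 or 2 or YM155 library 3 (adjusted p of 0.077, 0.068 and 0.083). RefSeq names 18 pseudogenes after COX6C and 8 after COX5B, and how reads shared with such copies were assigned is not stated, so both levels are uncertain.

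COX8A, which encodes the small subunit VIII of most tissues, was the largest rise of all members: 429, 461 and 420 FPKM with DMSO and 589, 519 and 528 with YM155. Each YM155 library exceeded each DMSO library, 1.25-fold in the means (log2 fold change 0.32 ± 0.059 SE, limma adjusted p = 0.00078), and rescaling to a common sum gave -0.0043. COX5A, a subunit on the matrix side, went from 138 ± 5.79 to 169 ± 1.39 FPKM (log2 fold change 0.29, limma adjusted p = 0.00015), and to -0.029 after rescaling. COX8A over COX7C was 0.433 ± 0.0134 within the DMSO libraries and 0.667 ± 0.0181 within the YM155 libraries (SD, n = 3). That pair too was picked for its extremes. The stretch before the start of COX8A (chr11:63974420-63974619, plus strand) is printed because it belongs to the largest rise; capitals mark its ETS core, which lies at -18 on the opposite strand.
COX8A: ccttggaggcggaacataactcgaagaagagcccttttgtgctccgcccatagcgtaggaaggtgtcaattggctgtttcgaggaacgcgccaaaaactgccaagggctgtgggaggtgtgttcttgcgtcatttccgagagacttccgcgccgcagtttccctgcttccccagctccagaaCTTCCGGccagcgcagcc

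The other 5 tested subunits of complex IV overlapped between the groups and did not pass with the deposited values. COX6A1 was at 572, 629 and 554 FPKM with DMSO and 626, 605 and 574 with YM155 (limma adjusted p = 0.51). COX4I1, a regulatory subunit, was at 382, 416 and 384 and at 400, 351 and 357 (adjusted p = 0.17), and COX6B1 at 461, 497 and 411 and at 416, 412 and 429 (adjusted p = 0.12). All 5, with COX7A2 and COX7B, were lower under each of the 4 scalings other than median-of-ratios. COX7A2 was at 151, 159 and 139 FPKM with DMSO and 160, 148 and 152 with YM155 (adjusted p = 0.54), and COX7B at 424, 438 and 400 and at 381, 390 and 417 (adjusted p = 0.14).

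Isoforms known from other tissues were close to absent. COX4I2, COX6A2, COX7B2 and ATP5L2 were listed at 0 in all 6 libraries, while COX7A1 and COX8C were above 0 in DMSO library 3 alone, at 0.0729 and 0.124 FPKM. COX6B2, a testis isoform, had 0.370 ± 0.0730 FPKM with DMSO and 0.270 ± 0.110 with YM155 (SD, n = 3). UQCRHL, a near-copy of UQCRH, had 0.501 ± 0.321 and 0.192 ± 0.191. All 8 were under the filter and were not tested.

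Complex V had the highest share of lower calls with the deposited FPKM and the largest fall of a single member, while the median fall was larger in complex III (-0.46 against -0.42). Its Fo part and stalk, the membrane rotor, the proton channel and the arm that holds the F1 head, had 10 lower of 10 tested, with a median log2 fold change of -0.51. In the F1 head, which makes ATP, 4 of 5 were lower and the median was -0.40. No member was higher in either part, under the deposited scaling or any of the other 5.

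ATP5H, a peripheral stalk subunit, was at 215, 230 and 227 FPKM with DMSO and 116, 112 and 112 with YM155. The groups were widely apart, a 1.98-fold fall and the largest among the members (log2 fold change -0.98 ± 0.042 SE, limma adjusted p = 5.2e-08). ATP5J, coupling factor 6 of the same stalk, was at 92.9, 94.2 and 102 FPKM with DMSO and 49.8, 49.9 and 48.5 with YM155. Its fall of 1.95-fold was of similar size (limma adjusted p = 1.3e-07). The other stalk subunits fell less: ATP5O 1.49-fold from 179 ± 5.23 to 121 ± 7.12 FPKM, and ATP5F1 1.34-fold from 94.4 ± 1.41 to 70.3 ± 0.625 (SD, n = 3).

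In the membrane part, ATP5I was the most abundant, at 414, 444 and 410 FPKM with DMSO and 339, 326 and 335 with YM155. All its YM155 libraries were lower (log2 fold change -0.34, limma adjusted p = 7.1e-05). ATP5J2, another small membrane subunit, fell 1.61-fold, from 356 ± 7.52 to 221 ± 13.8 FPKM, and ATP5L fell 1.32-fold, from 161 ± 6.77 to 122 ± 1.55.

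The c subunit, which forms the rotor ring, is encoded by ATP5G1, ATP5G2 and ATP5G3, whose mature proteins are known to be identical. ATP5G1 was at 135, 152 and 124 FPKM with DMSO and 73.1, 73.6 and 73.4 with YM155, a 1.87-fold fall with no overlap (log2 fold change -0.89 ± 0.068 SE, limma adjusted p = 1.9e-06). ATP5G3, the scarcest of the 3, fell 1.38-fold from 46.0 ± 0.251 to 33.5 ± 0.968 FPKM. ATP5G2, the most abundant, was at 355, 379 and 336 and at 336, 305 and 317 FPKM, with overlap at the edge. It passed as lower (log2 fold change -0.16, limma adjusted p = 0.025), but did not pass without DMSO library 1 (0.058), DMSO library 2 (0.086), YM155 library 2 (0.098) or YM155 library 3 (0.065). The makeup of c subunit messages thus differed: ATP5G1 was 25.3% ± 0.928 of their summed FPKM with DMSO and 17.2% ± 0.696 with YM155, and ATP5G2 66.1% ± 0.345 and 74.9% ± 0.962 (SD, n = 3). The ATP5G3 share overlapped between the groups (8.55% ± 0.601 and 7.86% ± 0.329). RefSeq names 8 pseudogenes after ATP5G1 and 5 after ATP5G2, which leaves their split uncertain.

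The stretches before ATP5H and ATP5G1, among the largest falls of the complex, share no core. ATP5H (chr17:75046970-75047169, minus strand) holds an ETS core at -101, and ATP5G1 (chr17:48892587-48892786, plus strand) holds the cyclic AMP response element at -57. Capitals mark these letters.
ATP5H: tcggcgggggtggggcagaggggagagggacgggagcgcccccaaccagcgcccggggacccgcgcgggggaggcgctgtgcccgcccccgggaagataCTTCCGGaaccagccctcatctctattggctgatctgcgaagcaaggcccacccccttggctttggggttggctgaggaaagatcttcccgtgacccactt
ATP5G1: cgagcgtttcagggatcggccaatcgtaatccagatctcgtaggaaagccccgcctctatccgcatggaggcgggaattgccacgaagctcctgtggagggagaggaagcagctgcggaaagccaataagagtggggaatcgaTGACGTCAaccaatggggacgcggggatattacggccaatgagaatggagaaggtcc

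In the F1 head, ATP5A1, the alpha subunit, was at 200, 205 and 202 FPKM with DMSO and 139, 125 and 132 with YM155, a 1.53-fold fall with no overlap (log2 fold change -0.61 ± 0.047 SE, limma adjusted p = 1.9e-06). ATP5B, the catalytic beta subunit that pairs with alpha in the head, was at 391, 395 and 392 FPKM with DMSO and 373, 354 and 359 with YM155. Its groups did not overlap, but the log2 fold change was only -0.12 (limma adjusted p = 0.017), and it did not pass without YM155 library 2 (0.073) or YM155 library 3 (0.059). ATP5C1, the central gamma shaft, fell 1.33-fold from 170 ± 4.93 to 128 ± 1.48 FPKM (SD, n = 3). ATP5E, the epsilon subunit, was at 1077, 1164 and 1050 FPKM with DMSO and 850, 804 and 801 with YM155, all lower (log2 fold change -0.42, limma adjusted p = 4.5e-05).

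ATP5D, the delta subunit beside epsilon on the shaft, was the only tested member of complex V that did not pass, at 60.99, 64.8 and 61.2 FPKM with DMSO and 71.7, 63.8 and 56.9 with YM155. The groups overlapped (log2 fold change 0.035, limma adjusted p = 0.68), and the sign turned without YM155 library 1 (-0.047, adjusted p = 0.48). Under the 4 scalings other than median-of-ratios it was lower, from -0.21 to -0.40. The ratio of ATP5D to ATP5H within a library was 0.278 ± 0.00720 with DMSO and 0.565 ± 0.0551 with YM155 (SD, n = 3). This pair was likewise picked for its extremes.

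Set against complex IV within each library, the other complexes moved apart. The summed FPKM of complex V over that of complex IV was 0.987, 0.983 and 1.02 with DMSO and 0.767, 0.766 and 0.778 with YM155. Complex III over complex IV was 0.291 ± 0.00634 and 0.240 ± 0.00274, and complex II over complex IV 0.0715 ± 0.00289 and 0.0785 ± 0.00376 (SD, n = 3). The groups did not overlap in any of these 3 ratios, whose direction is not set by a library's scale factor. They are given as descriptions with no test.

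**Figure D3:**
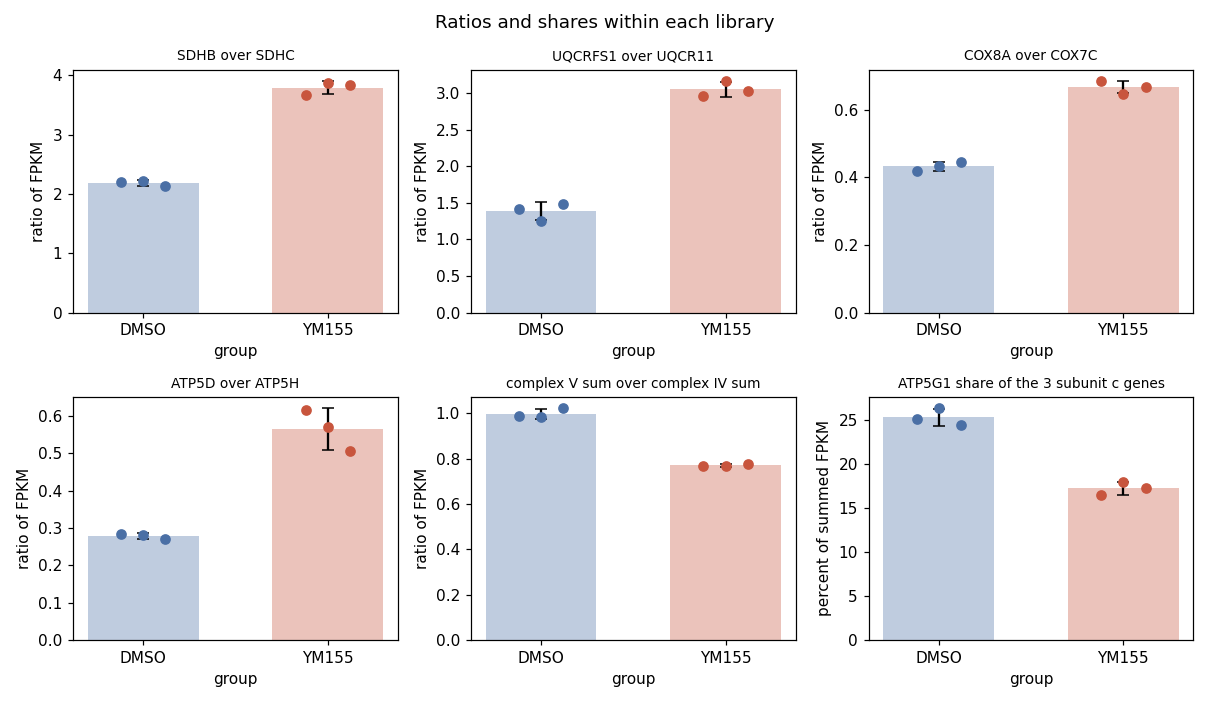
Ratios of FPKM within each library (5 panels) and the ATP5G1 share of the summed FPKM of the 3 c subunit genes (percent, last panel); bars are means of 3 libraries with SD, points are libraries, and axes start at 0. In every panel the DMSO and YM155 points are apart, for example 0.997 against 0.770 in the means of complex V over complex IV. The pairs of single genes were picked as the highest and lowest log2 fold change of each complex, so their gaps are descriptions.

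Of the prefix matches that are no subunit, 2 of 4 were higher and 0 lower with the deposited FPKM. Under other scalings some were lower: ATP5SL with a common sum, quantile normalization and loess, COX7A2L with quantile normalization, and ATP5S with upper-quartile scaling and a common sum, though ATP5S was higher with quantile normalization and loess. COX7A2L, which is known to help join complexes III and IV into supercomplexes, was at 142, 144 and 139 FPKM with DMSO and 171, 170 and 172 with YM155, a rise in deposited FPKM with no overlap (log2 fold change 0.27, limma adjusted p = 9.7e-05) that became -0.054 after rescaling to a common sum. ATP5SL passed narrowly with overlapping groups, at 50.9 ± 2.96 and 56.2 ± 3.15 FPKM (adjusted p = 0.047). It did not pass without DMSO library 1 (0.11), DMSO library 3 (0.16), YM155 library 2 (0.080) or YM155 library 3 (0.17), and its value was -0.18 after rescaling to a common sum. ATP5S was at 3.09 ± 0.184 and 2.97 ± 0.331 FPKM and ATP5J2-PTCD1 at 1.93 ± 0.663 and 1.85 ± 0.257 (SD, n = 3), and neither passed (adjusted p = 0.61 and 0.88).

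Level and length set the members apart from most genes. Of the 38 tested subunits, 32 were in the top of 10 abundance groups of tested genes, in which all 1204 genes had a median of 0.31 on the log2 scale, against -0.32 over the subunits. Their median transcript length was 672 bases against 1777 for tested genes. Genes of up to 600 bases had a median log2 fold change of -0.0082 and genes of 600 to 1000 bases of -0.054. These are descriptions, and no test was made of them.

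Among the 36 members with a promoter window, starts of other listed genes lie head to head with 11. They lie within 1000 bases upstream or 300 bases inside the member, and 10 of these neighbours were tested. Of all tested genes, 41.0% were lower and 43.6% higher. In 6 pairs both genes were lower: HAUS1 beside ATP5A1, KIN beside ATP5C1, WDR77 beside ATP5F1, MYL5 beside ATP5I, CCDC127 beside SDHA and ZMAT5 beside UQCR10. HAUS1, an augmin subunit of the mitotic spindle, went from 27.8 ± 0.571 to 11.2 ± 0.752 FPKM (log2 fold change -1.24), a larger change than that of ATP5A1, 158 bases away. The KIN call was lost under quantile, loess and median-of-ratios scaling. In 3 pairs the member fell and the neighbour was higher: KCTD2 beside ATP5H (7.67 ± 0.442 to 9.45 ± 0.160 FPKM), LRRC41 beside UQCRH (15.3 ± 0.760 to 17.6 ± 0.214) and GABPA beside ATP5J (4.91 ± 0.669 to 7.20 ± 0.295; SD, n = 3). The KCTD2 and GABPA calls were lost after rescaling to a common sum, that of KCTD2 also with upper-quartile scaling, and that of LRRC41 under all but median-of-ratios scaling. EMC8 beside COX4I1, which did not pass, rose from 16.9 ± 1.07 to 28.1 ± 1.11 FPKM under all 5 scalings. The starts of ATP5J and GABPA overlap by 82 bases on opposite strands, and whether strand was used in quantification is not stated, so their reads may be shared.

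Related genes outside the member list were counted in the same fit, from lists assembled by known function. Over all genes of that fit, 41.0% were lower and 43.6% higher. Symbols used for complex I (NDUFA, NDUFB, NDUFC, NDUFS or NDUFV) had 43 rows. Among them were 3 antisense rows, the read-through NDUFC2-KCTD14, NDUFA4, now known as a subunit of complex IV, and its paralogue NDUFA4L2. Of the 43 rows, 41 were tested, 33 were lower and 1 was higher, with a median log2 fold change of -0.54. The lower rows included the read-through and the antisense row NDUFA6-AS1. The 1 higher was NDUFA4L2, at 30.2 ± 1.85 FPKM with DMSO and 39.8 ± 3.79 with YM155 (SD, n = 3), a call lost under the 4 scalings other than median-of-ratios. Subunits and regulators of complexes IV and V outside the prefixes (NDUFA4, which is also among the 33 lower above, USMG5, C14orf2 and ATPIF1) were lower in 4 of 4, though USMG5 did not pass with median-of-ratios scaling. ATPIF1, the inhibitor of ATP hydrolysis by complex V, went from 228, 234 and 234 to 110, 101 and 104 FPKM, a 2.21-fold fall (limma adjusted p = 2.5e-08). C14orf2, a small ATP synthase-associated protein, fell 1.41-fold.

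Assembly factors were mostly lower, with exceptions. Among all tested genes, 41.0% were lower and 43.6% higher with the deposited FPKM, and 53.4% and 31.8% with a common sum. For complex II, 3 of 4 were lower, among them SDHAF3 (4.17 ± 0.372 to 1.30 ± 0.135 FPKM) and SDHAF4 (9.01 ± 0.909 to 4.14 ± 1.77), and SDHAF2, which helps attach flavin to SDHA, was higher in deposited FPKM (46.4 to 51.0) but lower or not passed under all scalings other than median-of-ratios. For complex III, 5 of 6 were lower, among them UQCC1 (28.3 ± 0.420 to 13.02 ± 1.13) and LYRM7 (2.19 to 1.21), whose call was lost under quantile and loess scaling, and TTC19 was higher at 8.45 and 9.48 FPKM, a call kept only with median-of-ratios scaling. For complex IV, 17 of 26 were lower and 7 higher, and the higher count was 3 with upper-quartile scaling, 1 with a common sum, 1 with quantile normalization and 2 with loess. Its lowest p-values among falls were those of COA3 (52.7 ± 1.43 to 19.2 ± 1.28 FPKM) and SURF1 (31.9 ± 2.25 to 12.3 ± 1.15). COX10, which makes the heme A precursor, rose 2.41-fold from 4.94 ± 0.402 to 11.9 ± 0.606 FPKM under every scaling (SD, n = 3), and LRPPRC, a mitochondrial RNA-binding protein, rose from 48.3 to 62.3, a call kept only with upper-quartile and median-of-ratios scaling. CMC1 was at 23.2 ± 3.81 and 19.5 ± 2.57 FPKM and did not pass (adjusted p = 0.092), but was lower under the 4 scalings other than median-of-ratios (-0.48 to -0.55) and without DMSO library 2 (0.023) or YM155 library 2 (0.030). For complex V, 4 of 4 were lower, among them ATPAF1 (19.5 to 12.2 FPKM) and C7orf55 (5.34 to 2.29).

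**Figure D4:**
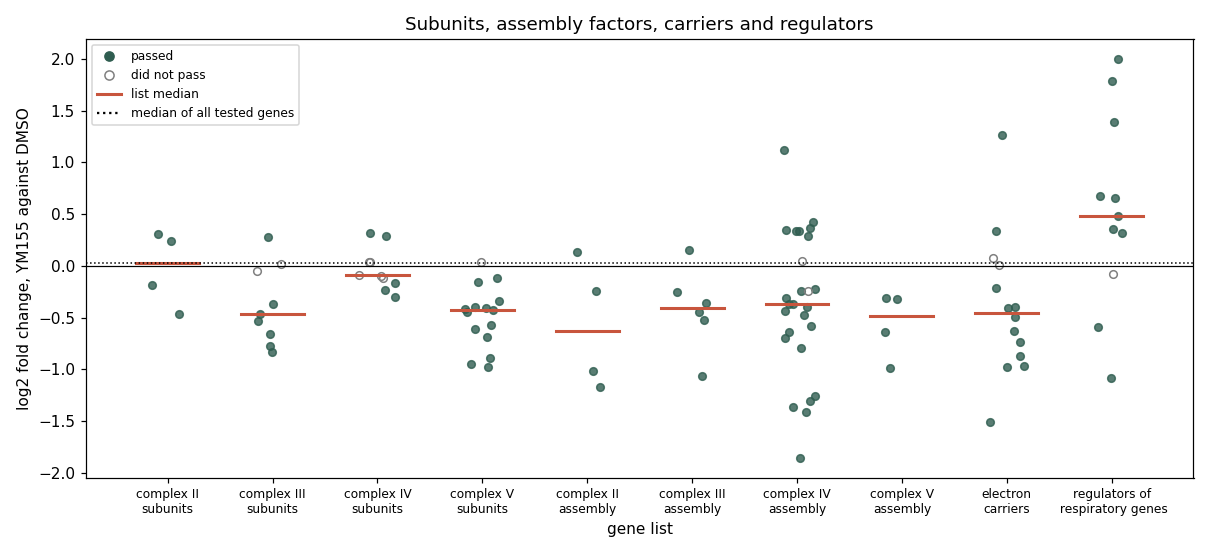
Log2 fold change (vertical axis) of each tested gene in 10 lists, the subunits of each complex, their assembly factors, electron carriers and nuclear regulators; filled points passed, open points did not, red lines are list medians and the dotted line is the median of all tested genes (0.024). The complex V list lies below 0 but for 1 open point, and the regulators list has 8 of 11 points that passed above 0.

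Genes tied to the mobile carriers, cytochrome c and ubiquinone, were mostly lower by count, but cytochrome c itself was not. Of 14 such genes, 10 were lower (71.4%, against 41.0% of all tested genes) and 2 higher (14.3%, against 43.6%). The lower ones were all genes of ubiquinone synthesis or handling. COQ9 fell 2.99-fold, from 37.2 ± 1.31 to 12.4 ± 1.34 FPKM, and COQ5, a methyltransferase of the pathway, fell 2.07-fold from 16.9 ± 0.534 to 8.18 ± 0.563. COQ10B, a ubiquinone-binding protein, rose 2.54-fold from 10.3 ± 0.979 to 26.0 ± 2.07 FPKM (SD, n = 3). CYCS, cytochrome c itself, was at 16.7 ± 1.29 and 21.5 ± 2.93 FPKM and higher (adjusted p = 0.0097), but kept that call only with median-of-ratios scaling. COQ2 was at 11.3 and 11.4 FPKM and did not pass with the deposited values, but was lower with upper-quartile, common-sum and quantile scaling. Of the 3 supercomplex factors, COX7A2L was higher in deposited FPKM, and HIGD1A and HIGD2A did not pass. HIGD2A was lower under the 4 scalings other than median-of-ratios (-0.29 to -0.49), and HIGD1A with a common sum (-0.19).

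Nuclear regulators of respiratory genes went the other way from the subunits by count. Of 13 listed, 11 were tested, with a median log2 fold change of 0.48. Of these, 8 were higher (72.7%, against 43.6% of all tested genes) and 2 lower (18.2%, against 41.0%). With a common sum 5 were higher and 3 lower (median 0.20), and with upper-quartile scaling 6 and 3. GABPB1, a partner subunit of GABP, rose from 9.87, 8.32 and 9.59 to 37.5, 40.8 and 41.7 FPKM, or 4.32-fold, with a wide gap between the groups (limma adjusted p = 1.6e-08). PPRC1, a coactivator related to PGC-1, rose 3.64-fold from 12.2 ± 0.718 to 44.3 ± 0.812 FPKM. NRF1 (5.87 ± 0.234 to 9.81 ± 0.459) and YY1 (18.2 ± 1.93 to 49.1 ± 2.22; SD, n = 3), named because their cores were searched above, were also higher. The list also holds factors that work inside mitochondria, TFAM, TFB1M, TFB2M and POLRMT, and these did not move alike. TFAM fell 1.56-fold from 13.9 ± 1.39 to 8.94 ± 1.19 FPKM and TFB1M 2.86-fold from 4.31 ± 0.364 to 1.51 ± 0.0257. POLRMT was higher, at 11.3 ± 0.0958 FPKM with DMSO and 14.4 ± 0.740 with YM155 (limma adjusted p = 0.00048). That call was kept only with loess and median-of-ratios scaling. TFB2M, at 19.5 and 18.4 FPKM, did not pass (adjusted p = 0.28), and was lower under the 4 scalings other than median-of-ratios (-0.31 to -0.38). PPARGC1A and PPARGC1B, which encode the PGC-1 coactivators, were under the filter.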

How the data were processed

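Messenger RNA of HT29 cells was sequenced after column extraction and stranded library preparation, per the labels' protocols, in 3 DMSO and 3 YM155 libraries. The authors deposited 1 table of FPKM per library. The build was hg19, and Cufflinks 2.2.1, Cuffdiff, Bowtie2 2.3.5.1, TopHat2 2.1.1 and SAMtools 1.2 were used, per the submitters' processing notes. Settings, annotation, scaling between libraries, read totals and use of strand are not given in the sources used. The reads behind a value are therefore known only from the relative estimate given above.

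Genes at 1 FPKM or more in at least 3 of 6 libraries (12035 of 26255) were compared on log2(FPKM + 1) with limma 3.58.1 in R 4.3.3 (eBayes with trend, two-sided, no block, Benjamini-Hochberg over all tested genes, threshold 0.05), a script tested on simulated data. Log2 fold changes are on that scale, which understates changes of scarce transcripts, and folds are ratios of mean FPKM. No test was made over a list.

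The members and lists were chosen with earlier results of these data known. Named were all complex II genes; in complex III, complex IV and the F1 and Fo parts of complex V, the most abundant member, the largest rise and fall and the tested members that did not pass; tissue isoforms; and, in related lists, up to 2 genes with the lowest p in each direction and the most abundant that did not pass. Other genes, and the pairs used for ratios, were chosen after their values were seen. Sequences are RefSeq's (GRCh38.p14), matched by symbol or older symbol for 36 of 50 members, while the files use hg19; their coordinates do not apply to hg19. RefSeq names at least 1 pseudogene after 31 of 50 members, whose levels may include shared reads. Alternatives were other pseudocounts, filters, scalings, eBayes settings, a replicate block, leaving out each library and a threshold of 0.01.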

Additional observations from a re-analysis of the deposited data

How the results depend on the processing

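The counts of members (7 higher, 25 lower) stayed within 1.5 times of those values with pseudocounts of 0.1 and 0.5, without the filter, with a mean of at least 5 FPKM, with eBayes without trend or robust, at a threshold of 0.01 and without each library (5 to 7 higher, 22 to 26 lower). The scalings moved them: 0 higher with upper-quartile scaling and with a common sum, 1 higher and 39 lower with quantile normalization, and 2 higher and 34 lower with cyclic loess (of all genes 4643 higher and 5487 lower with quantile, 4913 and 5077 with loess). With a mean of at least 5 FPKM, 4419 of all genes were higher and 2922 lower, in place of 5251 and 4940. The median log2 fold change of all tested genes was then 0.19, in place of 0.024. Scarce genes are left out by this filter, and abundance groups 1, 2 and 3 of 10, the scarcest, had medians of -0.52, -0.39 and -0.25. In the order upper-quartile, common sum, quantile and loess, the median log2 fold changes were -0.22, -0.29, -0.40 and -0.32 for complex II, -0.71, -0.78, -0.87 and -0.79 for complex III, -0.34, -0.41, -0.58 and -0.36 for complex IV and -0.67, -0.74, -0.86 and -0.77 for complex V. In that order, genes that passed as higher with the deposited FPKM and turned under at least 1 of these had log2 fold changes of -0.11, -0.18, -0.30 and -0.20 for ATP5SL, 0.043, -0.029, -0.17 and -0.055 for COX5A, 0.018, -0.054, -0.19 and -0.078 for COX7A2L, 0.068, -0.0043, -0.15 and 0.061 for COX8A, 0.062, -0.0096, -0.13 and -0.040 for SDHB. The others of this kind had -0.0037, -0.075, -0.20 and -0.10 for SDHD, 0.033, -0.038, -0.16 and -0.068 for UQCRFS1, 0.12, 0.045, -0.083 and 0.020 for LRPPRC, -0.11, -0.18, -0.29 and -0.20 for SDHAF2, -0.076, -0.14, 0.041 and 0.095 for TTC19. Genes that did not pass with the deposited FPKM and turned had -0.21, -0.28, -0.40 and -0.31 for ATP5D, -0.19, -0.23, 0.30 and 0.37 for ATP5J2-PTCD1, -0.24, -0.29, 0.20 and 0.24 for ATP5S, -0.21, -0.28, -0.43 and -0.20 for COX6A1, -0.21, -0.28, -0.42 and -0.31 for COX7A2, -0.23, -0.30, -0.42 and -0.33 for UQCRC1, -0.23, -0.29, -0.16 and -0.13 for COQ2. With median-of-ratios scaling ATP5J2-PTCD1 had 0.00047. Leaving out 1 library in turn gave -0.047 to 0.12 for ATP5D, -0.13 to 0.15 for ATP5J2-PTCD1, -0.11 to 0.0025 for ATP5S, -0.013 to 0.083 for COX7A2, -0.013 to 0.065 for UQCRC1 and -0.036 to 0.033 for COQ2, genes that did not pass with all 6. The cause of these changes was not tested. By the estimate from low values, the YM155 libraries had fewer reads behind a given FPKM. Read counts that would set an interval for scarce members such as COX6B2 are not in FPKM.

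Libraries of both groups share replicate numbers, but same-numbered libraries did not deviate together (correlations of -0.071, -0.148 and -0.125). Libraries of different numbers had correlations of -0.0032 to 0.124. The deviations were taken from means of 3 libraries, so these values cannot show whether the cultures were paired. With the replicate block, 6 members were higher and 24 lower, and of all genes 5147 and 4861. ATP5B (limma adjusted p = 0.064), ATP5SL (0.074), SDHAF2 (0.069) and TTC19 (0.087) then did not pass.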
